A study of Mus musculus with 15 samples.

Results

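The 10 genes described here, Gpnmb, Trem2, Cd9, Spp1, Mmp12, Itgax, Cd68, Ctss, Cx3cr1 and Ccr2, are widely used markers of recruited and lipid-associated macrophages, and they were followed in mouse liver across 3 diets. They were picked by symbol from the 23420 genes of the deposited count tables, and all 10 were found. The samples were polyA RNA of pulverized left liver lobe from male C57Bl/6J mice, an inbred strain, with 15 libraries in all. The MCD group (5 libraries) ate a diet of 31% fat that lacked methionine, choline and folate, the HFD group (5 libraries) a diet of 31% fat, and the BD group (5 libraries) a base diet of 4% fat. Every mouse had also been given vehicle alone, 5% of the emulsifier Alkmauls El-620 in saline, and was sampled 24 h later, so no group is free of the vehicle. The labels give neither the age of the mice nor the weeks on diet, nor whether every library is a separate animal, so the p-values speak only of the spread among these libraries.

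Resident liver macrophages, the Kupffer cells, line the sinusoids. In fatty liver, blood monocytes that enter the tissue can also become macrophages, and a part of them takes on a lipid-associated state marked by the lipid receptor TREM2, the transmembrane glycoprotein GPNMB, the tetraspanin CD9 and osteopontin (Spp1). CCR2 is the receptor by which monocytes follow CCL2 out of the bone marrow, CX3CR1 binds fractalkine, and CD68 and cathepsin S are products of the lysosomes of macrophages in general.

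The stretches at the start of these genes are shown because they carry the letters of a motif of AP-1 or PU.1, transcription factors known for their work at macrophage genes. They come from RefSeq promoter windows of build GRCm38.p6, 250 bases before to 50 after each start, of which all 10 symbols had at least 1 (12 windows, since Spp1 and Mmp12 have 2 starts each). Each line is 30 bases, 5′ to 3′ on the strand of the gene, with the match in capitals. The first set holds TGAGTCA, the AP-1 motif, searched on both strands.
Gpnmb, chr6:49036515-49036544, plus strand: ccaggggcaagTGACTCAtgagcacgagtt
Itgax, chr7:128129483-128129512, plus strand: cccacctcctcTGAGTCAcgctgacaactt
Mmp12, the downstream start, chr9:7347319-7347348, plus strand: gacatcaacagTGAGTCAgatagaggattt
Cd68, far match, chr11:69666301-69666330, minus strand: taagttccgtgTGAGTCAgctgcctcattc
Cd68, near match, chr11:69666176-69666205, minus strand: gctgaggtgtcTGAGTCAggtttggggtgg
The next set holds GAGGAAGT, a form of the PU.1 motif, also searched on both strands.
Ctss, chr3:95526773-95526802, plus strand: aatgaaagttcACTTCCTCattgtggatgc
Spp1, the upstream start, chr5:104434987-104435016, plus strand: caaaaccagagGAGGAAGTgtaggagcagg
Mmp12, the upstream start, chr9:7344298-7344327, plus strand: ccacttcacccACTTCCTCttccaagactc

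TGAGTCA stood in 4 of the 12 windows, those of Gpnmb, Itgax, Mmp12 and Cd68, and in 5.20% of all 32851 windows of that length. GAGGAAGT stood in 3 of the 12, those of Ctss, Spp1 and Mmp12, against 3.20% of all windows. Of the letters read by the MiT family of lysosomal regulators, TCACGTG was in 0 of the 12 (3.77% of all) and TCATGTG in 2, Ctss and Mmp12 (3.77% of all), while TTGCNNCAA, a form of the C/EBP motif, was in 0 of the 12 (2.08% of all). A match says only that the letters are there. The 250 bases before the starts of Gpnmb and Cd68 are given whole, because Gpnmb had the largest log2 fold change between diets and Cd68 the only window with the AP-1 letters at more than 1 place. In the Gpnmb stretch (chr6:49036268-49036517, plus strand) nothing is in capitals, since its match lies just past the start, and in that of Cd68 (chr11:69666171-69666420, minus strand) the capitals are TGAGTCA.
Gpnmb: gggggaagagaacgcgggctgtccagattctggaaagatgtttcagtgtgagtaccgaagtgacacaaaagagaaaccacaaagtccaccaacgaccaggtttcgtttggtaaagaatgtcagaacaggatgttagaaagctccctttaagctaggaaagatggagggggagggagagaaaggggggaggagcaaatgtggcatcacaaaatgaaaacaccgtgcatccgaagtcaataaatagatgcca
Cd68: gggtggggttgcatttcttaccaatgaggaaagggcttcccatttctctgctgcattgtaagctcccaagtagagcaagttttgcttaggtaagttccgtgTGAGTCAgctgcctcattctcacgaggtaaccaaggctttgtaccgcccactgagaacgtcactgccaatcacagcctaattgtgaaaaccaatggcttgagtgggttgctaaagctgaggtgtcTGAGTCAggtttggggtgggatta

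All 15 libraries held the RNA of liver: albumin (Alb) averaged 111365 ± 12632 CPM (counts scaled to a total of 1000000 gene counts) in MCD, 95450 ± 8489 CPM in HFD and 100875 ± 7196 CPM in BD livers (SD, n = 5 each). The libraries held between 3704642 and 23131089 gene counts, so that 3 counts stood for 0.130 to 0.810 CPM, and values in or under that range rest on very few reads. HFD replicate 2 stood apart from the other HFD libraries for most of the 10 genes and MCD replicate 3 was the lowest MCD library for 8 of them, so results that rest on these libraries are given with and without HFD replicate 2. The sample numbers in the labels of the BD mice lie apart from those of the other diets, so an effect that follows the numbering and one of the base diet cannot be told apart. Levels are given below as plain CPM for replicates 1 to 5 in that order, while log2 fold changes, their SE and adjusted p-values are from edgeR's quasi-likelihood test with TMM scaling and Benjamini-Hochberg adjustment over 12193 genes, called at 0.05.

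All 10 genes were higher in MCD than in BD livers, and for 9 of them, all but Spp1, the lowest MCD library lay above the highest BD library. Of all genes tested, 12.8% were called higher in that comparison and 13.5% did not overlap in that direction. The median log2 fold change of the 10 was 2.34, from 0.41 for Cd9 to 5.96 for Gpnmb, beside -0.03 for all genes. Gpnmb, Trem2, Mmp12 and Cx3cr1 reached the level needed to be tested mainly in MCD livers. Their differences of MCD from BD and from HFD were thus partly set by that filter. At its level of 0.970 CPM, Gpnmb and Mmp12 had 0 BD libraries and 1 HFD library each. Trem2 and Cx3cr1 had 1 BD library and 2 HFD libraries each. In bulk RNA, more cells of a type and more RNA per cell cannot be told apart.

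**Figure D1:**
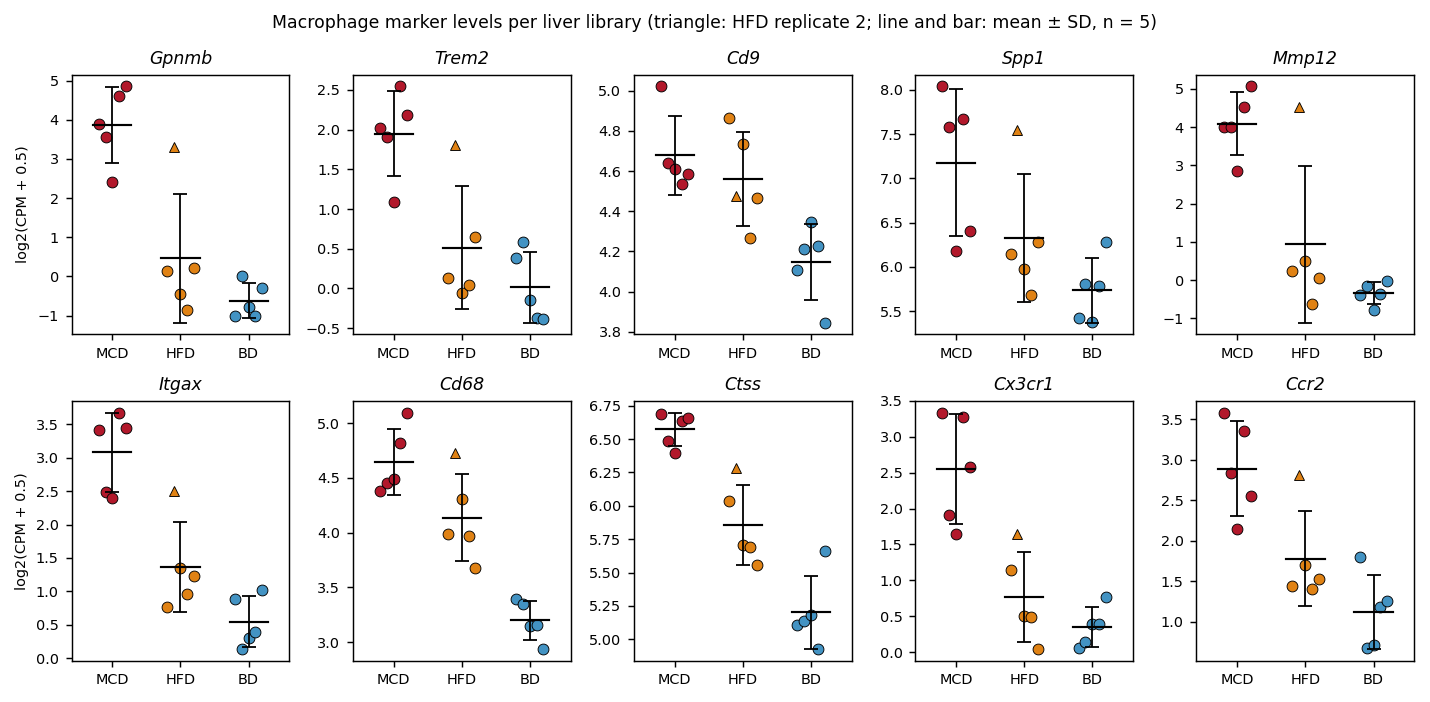
Level of each of the 10 genes as log2(CPM + 0.5), one panel per gene with its own axis, for the MCD, HFD and BD libraries (points; HFD replicate 2 as a triangle) with mean and SD (lines, n = 5 each). MCD libraries lie above all BD libraries for every gene but Spp1, and HFD replicate 2 is the highest HFD library for 9 genes.

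Gpnmb (chr6:49036518-49058182, plus strand, GRCm38) encodes a transmembrane glycoprotein of lysosomes and the cell surface that macrophages make when loaded with lipid. It stood at 14.4, 11.3, 4.79, 23.9 and 28.4 CPM in MCD livers, against 0.599, 9.31, 0.229, 0.0479 and 0.663 CPM in HFD livers and 0, 0.5, 0.0813, 0 and 0.313 CPM in BD livers. The BD values are 13 reads in all, with 2 libraries at 0, and no BD library reached the lowest MCD library. Gpnmb was thus the gene with the widest gap: it was higher in MCD than in BD by 5.96 ± 1.18 on the log2 scale (SE, edgeR adjusted p = 0.00300). Since few reads stand behind the BD level, the size of the Gpnmb difference is loose, and over the alternatives tried it ran between 4.01 and 6.71.

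Mmp12 (chr9:7344397-7360461, plus strand) encodes macrophage elastase, a secreted metalloprotease that cleaves elastin. Its levels were 15.5, 15.6, 6.66, 22.4 and 32.9 CPM in MCD livers, against 0.685, 22.3, 0.916, 0.144 and 0.530 CPM in HFD livers and 0.270, 0.400, 0.0813, 0.272 and 0.492 CPM in BD livers. It followed the same picture as Gpnmb, with replicate 3 lowest and replicate 5 highest among the MCD libraries and 19 reads in all BD libraries together. Mmp12 was higher in MCD than in BD by 5.60 ± 1.33 on the log2 scale (SE, edgeR adjusted p = 0.00948).

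Trem2 (chr17:48346401-48352276, plus strand) encodes a receptor for lipids and lipoproteins that signals through the adaptor TYROBP. It was measured at 3.55, 3.26, 1.64, 5.33 and 4.05 CPM in MCD livers, against 0.599, 3.01, 0.458, 0.526 and 1.06 CPM in HFD livers and 0.810, 1.0, 0.406, 0.272 and 0.269 CPM in BD livers. The lowest MCD library was above the highest BD library, at levels where BD libraries held 26 reads in all. The difference of MCD from BD was 2.70 ± 0.51 on the log2 scale (SE, edgeR adjusted p = 0.00116).

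Spp1 (chr5:104435111-104441053, plus strand) encodes osteopontin, a secreted ligand of integrins and CD44 that bile duct cells make as well as macrophages. An annotated transcript, Gm42793, overlaps it on the same strand, so its count is uncertain. It stood at 262, 191, 71.9, 204 and 84.5 CPM in MCD livers, against 70.1, 187, 62.5, 51.02 and 77.0 CPM in HFD livers and 42.4, 55.5, 41.0, 54.7 and 77.4 CPM in BD livers. The MCD libraries fell into 3 high and 2 low ones, and the lowest of them lay under BD replicate 5, so the groups overlapped. Spp1 was higher in MCD than in BD by 1.44 ± 0.41 on the log2 scale (SE, edgeR adjusted p = 0.0253), and that call was lost when MCD replicate 1, 2 or 4 or BD replicate 1, 2 or 3 was left out (edgeR adjusted p 0.0512 to 0.0688). Summed markers of bile duct cells, 12 genes, ran from 47.9 to 74.7 CPM in MCD, 38.6 to 57.4 CPM in HFD and 50.7 to 58.4 CPM in BD livers, and their part in the Spp1 difference was not tested.

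Cd9 (chr6:125460266-125494760, minus strand) encodes a tetraspanin of the cell surface that many liver cells carry. Gm28809 and Gm26728 lie on the opposite strand within it, and its count is uncertain to that extent. It had 32.0, 24.4, 23.9, 22.7 and 23.5 CPM in MCD livers, against 28.6, 21.7, 26.1, 18.8 and 21.6 CPM in HFD livers and 16.7, 18.0, 19.8, 18.2 and 13.9 CPM in BD livers. Cd9 had the smallest difference of the 10: 0.41 ± 0.13 on the log2 scale for MCD against BD (SE, edgeR adjusted p = 0.0318). Without MCD replicate 1 or BD replicate 1, 2 or 5 it no longer passed (edgeR adjusted p 0.0519 to 0.102), and without scaling factors it was 0.55, since scaling moves the median gene of this comparison by 0.14.

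Itgax (chr7:128129526-128150657, plus strand) encodes CD11c, the integrin alpha chain of dendritic cells and of macrophages that crowd around dying fat-laden cells. It stood at 10.1, 5.09, 4.79, 12.2 and 10.4 CPM in MCD livers, against 1.198, 5.14, 2.06, 1.44 and 1.86 CPM in HFD livers and 1.35, 0.600, 0.731, 0.816 and 1.52 CPM in BD livers. Each MCD library was at least 4.79 CPM and no BD library was above 1.52 CPM. The difference of MCD from BD was 2.89 ± 0.41 on the log2 scale (SE, edgeR adjusted p = 1.25e-04). The 12 listed dendritic cell genes summed to 27.9 to 36.6 CPM in MCD, 17.3 to 32.4 CPM in HFD and 15.9 to 21.0 CPM in BD livers, none of the 12 was at 0 in all libraries of a diet, and their part in the Itgax difference was not tested.

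Cd68 (chr11:69664213-69666170, minus strand) encodes macrosialin, a glycoprotein of the lysosomal membrane. It was measured at 20.4, 21.4, 21.9, 27.7 and 33.7 CPM in MCD livers, against 15.4, 26.0, 19.2, 15.2 and 12.3 CPM in HFD livers and 9.99, 9.70, 8.37, 8.44 and 7.16 CPM in BD livers. The BD libraries lay close together and below each library of the other diets. Cd68 was higher in MCD than in BD by 1.39 ± 0.18 on the log2 scale (SE, edgeR adjusted p = 5.31e-05).

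Ctss (chr3:95526786-95556405, plus strand) encodes cathepsin S, a lysosomal protease that trims the invariant chain in antigen presentation, and it is overlapped by the pseudogene Hmgb1-ps5. Its levels were 102, 89.1, 83.8, 99.0 and 100.5 CPM in MCD livers, against 65.2, 77.5, 51.7, 51.2 and 46.7 CPM in HFD livers and 34.0, 34.6, 35.8, 29.9 and 50.1 CPM in BD livers. MCD libraries were above all others, with the least spread of the 10 genes in that diet, an SD of 8.08 CPM on a mean of 94.96 CPM. The difference of MCD from BD was 1.21 ± 0.14 on the log2 scale (SE, edgeR adjusted p = 1.41e-05).

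Cx3cr1 (chr9:120048683-120068296, minus strand) encodes the fractalkine receptor of patrolling monocytes and of some tissue macrophages. It had 9.60, 3.26, 2.63, 9.15 and 5.47 CPM in MCD livers, against 1.71, 2.62, 0.916, 0.909 and 0.530 CPM in HFD livers and 0.540, 0.600, 0.813, 0.816 and 1.21 CPM in BD livers. The lowest MCD library stood just above HFD replicate 2, and all BD libraries lay below both. Cx3cr1 was higher in MCD than in BD by 2.64 ± 0.42 on the log2 scale (SE, edgeR adjusted p = 3.02e-04).

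Ccr2 (chr9:124101918-124109140, plus strand) encodes the receptor that inflammatory monocytes use to enter tissue. Its values were 11.5, 6.61, 3.91, 9.70 and 5.36 CPM in MCD livers, against 2.22, 6.50, 2.75, 2.15 and 2.39 CPM in HFD livers and 2.97, 1.10, 1.14, 1.77 and 1.88 CPM in BD livers. No BD library reached the lowest MCD library, and among HFD libraries only replicate 2 did. The difference of MCD from BD was 2.03 ± 0.37 on the log2 scale (SE, edgeR adjusted p = 7.98e-04).

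Against HFD, the diet with the same share of fat, 3 of the 10 genes were called higher in MCD livers, where 2.22% of all genes tested were. Cx3cr1 differed by 2.07 ± 0.39, Itgax by 1.81 ± 0.36 and Ctss by 0.62 ± 0.13 on the log2 scale (SE, edgeR adjusted p = 0.0124, 0.0160 and 0.0181). Cx3cr1 and Ctss did not overlap between these diets, as was the case for 3.85% of all genes in that direction, while Itgax overlapped through HFD replicate 2. Each of the 3 calls was lost when HFD replicate 4 was left out (edgeR adjusted p 0.0557 to 0.0689), and that of Ctss also without MCD replicate 1 or HFD replicate 3 or 5 (0.0514 to 0.0575).

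The other 7 genes did not pass in MCD against HFD, though 7 of the 10 had an unadjusted p under 0.05. Many other genes did too: the largest of these p-values, 0.0227 for Cd68 (edgeR), ranked 1644 among the 12193 genes tested. Gpnmb differed by 2.83 ± 0.85, Trem2 by 1.57 ± 0.44 and Ccr2 by 1.15 ± 0.34 on the log2 scale (SE, edgeR adjusted p = 0.0912, 0.0617 and 0.0672). DESeq2 called Trem2 and Ccr2 here (adjusted p = 0.0234 and 0.0239), and limma-voom called these together with Gpnmb and Mmp12 (0.0325 to 0.0482). Over all genes, DESeq2 called 433 higher in this comparison and limma-voom 377, against 271 with edgeR. For Mmp12 the difference was 1.82 ± 0.92, for Spp1 0.80 ± 0.41 and for Cd68 0.43 ± 0.17 (SE, edgeR adjusted p = 0.295, 0.296 and 0.168). Cd9 showed a difference of 0.05 with a 95% interval of -0.22 to 0.32 (edgeR adjusted p = 0.875).

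HFD against BD gave calls for 2 of the 10: Cd68 was higher in HFD livers by 0.96 ± 0.19 and Ctss by 0.59 ± 0.14 on the log2 scale (SE, edgeR adjusted p = 0.00304 and 0.0128). Of all genes tested, 3.65% were called higher in HFD. Cd68 did not overlap between these diets, as was the case for 5.11% of all genes in that direction, whereas the lowest Ctss library of HFD lay under BD replicate 5. The difference between these 2 genes and the other 8 was not tested, and 7 of the 10 had an unadjusted p under 0.05. Many other genes did too: the largest of these p-values, 0.0445 for Gpnmb (edgeR), ranked 2344 among the 12193 genes tested. The other 8 ran from 0.36 ± 0.13 for Cd9 to 3.79 ± 1.44 for Mmp12 on the log2 scale (SE, edgeR adjusted p = 0.123 and 0.156), and DESeq2 called Mmp12 (adjusted p = 0.00808). Over all genes, DESeq2 called 621 higher in HFD than in BD, against 445 with edgeR. Comparisons with a shared diet use the same libraries, so their values for a gene are not independent.

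**Figure D2:**
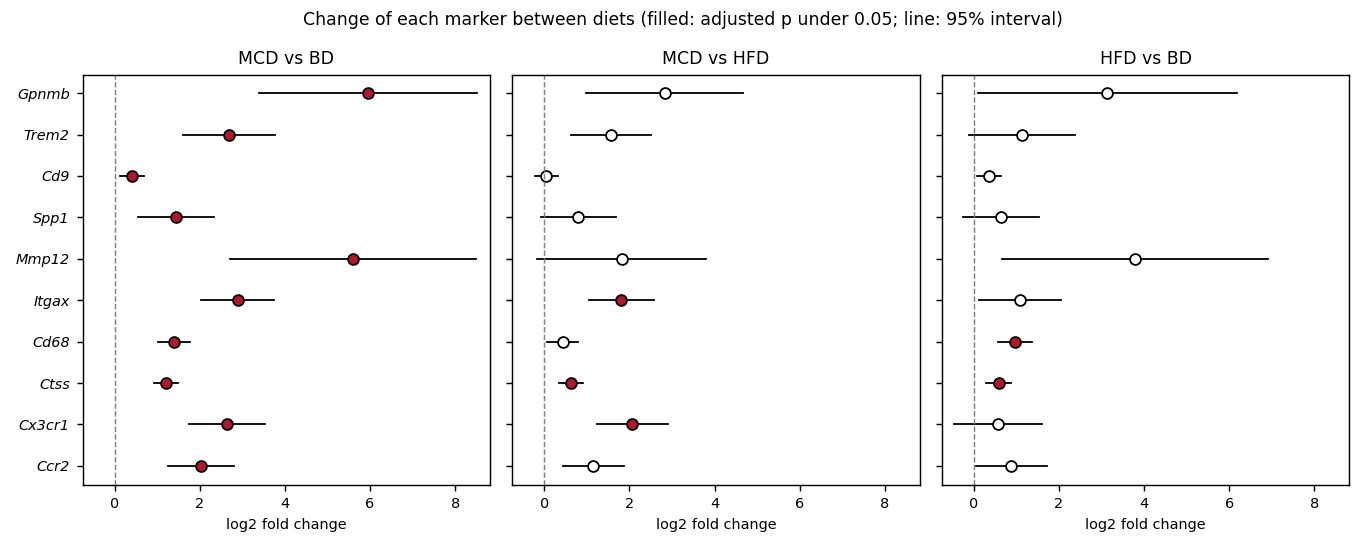
Log2 fold change of each gene (points, filled where the edgeR adjusted p is under 0.05) with its 95% interval (lines), for MCD against BD, MCD against HFD and HFD against BD from left to right. All 10 points are filled in the left panel, 3 in the middle and 2 in the right, and the intervals of Gpnmb and Mmp12 are the widest.

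Several of these values rest on 1 HFD library. HFD replicate 2 was the highest HFD library for 9 of the 10 genes, all but Cd9, and it reached or passed the lowest MCD library for 7. Its Mmp12 level of 22.3 CPM was 39.2 times the mean of the other HFD libraries, whose highest was 0.916 CPM, and its Gpnmb level of 9.31 CPM was 24.2 times theirs, whose highest was 0.663 CPM. The excess was smaller for Trem2 at 4.55 times, Itgax at 3.14 times, Spp1 at 2.87 times, Ccr2 at 2.73 times and Cx3cr1 at 2.58 times, and smaller again for Cd68 at 1.67 times and Ctss at 1.44 times. Cd9 stood at 0.914 times the mean of the others.

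In the same library, the 10 pan-macrophage genes summed to 499.7 CPM beside 373 to 478 CPM in the other HFD libraries, pan-leukocyte genes to 254 CPM beside 178 to 204 CPM, and hepatic stellate cell genes to 605 CPM beside 412 to 465 CPM. Dendritic cell genes summed to 32.4 CPM there beside 17.3 to 24.0 CPM, neutrophil genes to 5.82 CPM beside 3.78 to 4.90 CPM, and bile duct cell genes to 57.4 CPM beside 38.6 to 50.8 CPM. Kupffer cell genes at 1018 CPM, against 995 to 1195 CPM, lay within the range of the others, and the proliferation genes at 9.02 CPM lay below the 10.2 to 12.3 CPM of the others. C6 weighs heavily in the Kupffer cell sum and was lowest in this library, at 133 CPM beside up to 499 CPM in replicate 4. By the geometric mean of CPM + 0.5, the Kupffer cell genes stood at 45.5, within the 36.6 to 48.9 of the other HFD libraries. The library had 1.15 non-unique alignments per gene count, the lowest of the 15. The part of these in its marker levels was not tested.

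HFD replicate 2 was singled out because most of these same genes were high in it. Leaving it out therefore raises their differences of MCD from HFD, and lowers those of HFD from BD, by construction. The p-values of this paragraph are thus descriptive only. Gpnmb, Trem2, Mmp12 and Cx3cr1 also passed the filter mainly through MCD livers. Without HFD replicate 2, the comparison of MCD with HFD called 9 of the 10 genes higher, all but Cd9, while the share of all genes called higher was 6.8% (839 genes) beside 2.22% with it. Gpnmb then differed by 5.53 and Mmp12 by 5.25 on the log2 scale (edgeR adjusted p = 3.58e-04 and 9.82e-05), close to their difference of MCD from BD. Trem2 differed by 2.37, Ccr2 by 1.61, Spp1 by 1.25 and Cd68 by 0.62 (edgeR adjusted p = 0.00143, 0.00304, 0.0373 and 0.0216). In HFD against BD without that library, Gpnmb differed by 0.46, Mmp12 by 0.38, Trem2 by 0.35 and Spp1 by 0.21, with edgeR adjusted p of 0.899, 0.884, 0.806 and 0.829. Cd68 at 0.80 and Ctss at 0.49 still passed there (edgeR adjusted p = 0.00867 and 0.0330), where 2.74% of all genes were called higher.

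**Figure D3:**
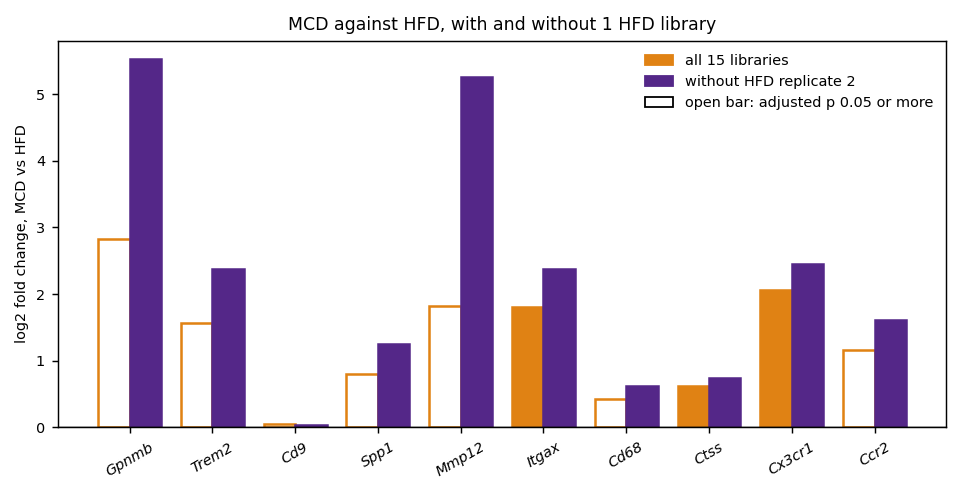
Log2 fold change of each gene in MCD against HFD, with all 15 libraries (orange bars) and without HFD replicate 2 (purple bars), open where the edgeR adjusted p is 0.05 or more. The bars of Gpnmb stand at 2.83 and 5.53 and those of Mmp12 at 1.82 and 5.25, while Cd9, which passed in neither, stands at 0.05 and 0.03. HFD replicate 2 was singled out because most of these genes were high in it, so the purple bars are descriptive.

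MCD replicate 3 was the low library of its diet, with the 10 genes summing to 226 CPM beside 329 to 482 CPM in the other MCD libraries. Its pan-macrophage sum was 475 CPM beside 505 to 744 CPM and its stellate cell sum 619 CPM beside 721 to 1078 CPM, while its Kupffer cell sum of 1121 CPM lay within the 960 to 1318 CPM of the others. For Trem2 and Ccr2, leaving it out brought MCD against HFD past the threshold (edgeR adjusted p = 0.0306 and 0.0298). MCD replicate 3 was singled out for its low values of these same genes, so that rise too follows from the choice.

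Genes that macrophages of all kinds share were also higher in MCD livers, where 12.8% of all genes were called higher than in BD. Of the 10 pan-macrophage genes, 9 were called higher in MCD than in BD: the NADPH oxidase subunit Cybb by 1.33, Cd14 by 1.23, the lysozyme gene Lyz2 by 1.18, Fcgr1 by 1.13, Aif1 by 1.05, Fcgr3 by 0.95, Adgre1, listed as Emr1, by 0.92, Mpeg1 by 0.85 and the CSF1 receptor Csf1r by 0.77 on the log2 scale (edgeR adjusted p 7.09e-05 to 0.00676). In HFD against BD, Cybb, Mpeg1 and Csf1r were called higher by 0.75, 0.59 and 0.53 (edgeR adjusted p = 0.0164, 0.0135 and 0.0261), and in MCD against HFD Lyz2 was, by 0.69 (edgeR adjusted p = 0.0462). The median of the list was 1.09 in MCD against BD, beside 2.34 for the 10 markers and -0.03 for all genes. Summed, these genes ran from 475 to 744 CPM in MCD, 373 to 499.7 CPM in HFD and 217 to 349 CPM in BD livers. The top of the BD range was replicate 5 alone, with the other BD libraries at 217 to 247 CPM.

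The 10 markers were therefore also fitted relative to the geometric mean of the pan-macrophage genes in each library. On that scale 6 of them were higher in MCD than in BD livers, where 1.57% of all genes were called higher and 84.5% lower, most genes being lower because the genes used as the measure rose. Gpnmb differed by 5.04 ± 1.16, Mmp12 by 4.68 ± 1.26, Itgax by 1.96 ± 0.33, Cx3cr1 by 1.71 ± 0.36, Trem2 by 1.67 ± 0.47 and Ccr2 by 1.03 ± 0.32 on the log2 scale (SE, edgeR adjusted p 1.55e-06 to 0.00379). Among these, Gpnmb, Mmp12, Cx3cr1 and Trem2 passed the filter mainly through MCD livers, which partly set their differences here too. Cd9 was lower relative to the pan-macrophage genes, with a difference of -0.68 ± 0.21 (SE, edgeR adjusted p = 0.00390). Spp1, Cd68 and Ctss did not pass: the differences were 0.41 with a 95% interval of -0.33 to 1.16, 0.30 with -0.14 to 0.73, and 0.19 with -0.15 to 0.53. With Kupffer cell genes as the measure, 8 of the 10 were called higher and 0 lower, so the call for Cd9 was lost, and with pan-leukocyte genes 7 were called higher and 1 lower. The share of all genes called was not taken with these measures, so these counts have no share to be read beside.

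Set against the pan-macrophage genes, Ctss and Cd68 overlapped between the diets. The ratio of Ctss to their geometric mean was 2.55 to 3.17 in MCD, 2.22 to 2.94 in HFD and 2.46 to 2.80 in BD livers, and that of Cd68 0.621 to 0.887, 0.586 to 0.966 and 0.352 to 0.786 in the same order of diets. For Gpnmb the ratio was 0.179 to 0.767 in MCD, 0.00226 to 0.322 in HFD and 0 to 0.0405 in BD livers. Each MCD library thus exceeded each BD library for Gpnmb.

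In MCD against HFD on that scale, 5 of the 10 were called higher, Cx3cr1 by 1.68, Itgax by 1.43, Gpnmb by 2.51, Trem2 by 1.202 and Ccr2 by 0.78 on the log2 scale (edgeR adjusted p 0.00350 to 0.0421), where 1.02% of all genes were and 29.1% were lower. Among the 5, Gpnmb, Trem2 and Cx3cr1 passed the filter mainly through MCD livers, which partly set their differences. The count of 5 ran from 2 to 6 when single libraries were left out and was 2 with Kupffer cell genes as the measure. No share of all genes was taken for these alternatives. In HFD against BD, 0 of the 10 passed in edgeR and 1 had an unadjusted p under 0.05, Mmp12 with a difference of 3.12 ± 1.33 (SE, edgeR adjusted p = 0.0520). Of all genes, 0.787% were called higher there and 68.2% lower.

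**Figure D4:**
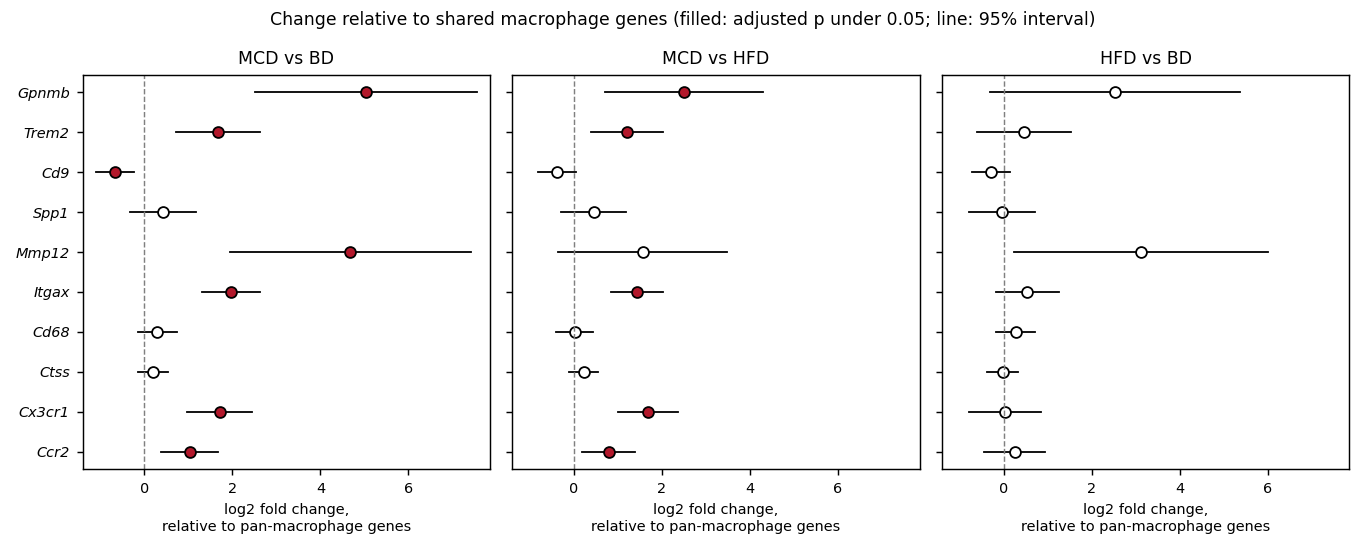
Log2 fold change of each gene relative to the geometric mean of 10 pan-macrophage genes (points, filled where the edgeR adjusted p is under 0.05) with 95% intervals (lines), for MCD against BD, MCD against HFD and HFD against BD from left to right. In MCD against BD, Gpnmb at 5.04 and Mmp12 at 4.68 stand far above 0, Ctss at 0.19 and Cd68 at 0.30 have intervals across 0, and Cd9 lies at -0.68.

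Of 14 Kupffer cell genes, 10 were called higher in MCD than in BD: the scavenger receptor Marco by 1.10, Cd5l by 0.95, the complement genes C1qb, C1qc and C1qa by 0.89, 0.79 and 0.71, Folr2 by 0.72, Clec1b by 0.66, the lectin Clec4f by 0.66, the complement receptor Vsig4 by 0.58 and the iron exporter Slc40a1 by 0.40 on the log2 scale (edgeR adjusted p 6.22e-05 to 0.0292). Timd4, a receptor of long-lived resident cells, stood at 0.40, Cd163 at 0.14, Fcna at 0.10 and C6 at -0.55, with edgeR adjusted p of 0.233, 0.676, 0.680 and 0.220. HFD against BD called C1qb and Cd5l, by 0.58 and 0.66 (edgeR adjusted p = 0.00543 and 0.00910). MCD against HFD called 0 of the 14 in edgeR, DESeq2 and limma-voom, with 1 unadjusted p under 0.05. The sum of the list was 960 to 1318 CPM in MCD, 995 to 1195 CPM in HFD and 722 to 1094 CPM in BD livers, with all defining genes detected in each diet, and its median log2 fold change was 0.66 in MCD against BD beside 1.09 for the pan-macrophage list, a difference that was not tested. C6, at -0.55 and not called, weighs heavily in that sum. By the geometric mean of CPM + 0.5 the list stood at 40.7 to 56.4 in MCD, 36.6 to 48.9 in HFD and 25.3 to 38.1 in BD livers. By that measure MCD and BD libraries did not overlap.

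Levels of different genes were set side by side per kilobase of exon (lengths from GENCODE M21, which need not be the annotation the authors counted on). In MCD livers the mean level was 98.7 ± 49.6 CPM per kb for Spp1, 69.9 ± 5.95 for Ctss, 20.6 ± 3.09 for Cd9 and 19.9 ± 4.48 for Cd68 (SD, n = 5). Mmp12 at 4.67, Gpnmb at 3.67, Trem2 at 3.12, Itgax at 1.97, Cx3cr1 at 1.34 and Ccr2 at 1.10 CPM per kb followed. Spp1 was above Ctss in 3 of 5 MCD libraries, Cd9 above Cd68 in 3 and Gpnmb above Trem2 in 3, so these neighbours cannot be ordered.

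HFD livers kept Spp1, Ctss, Cd9 and Cd68 at the top with mean levels of 54.3, 43.0, 19.0 and 14.0 CPM per kb, and BD livers with 32.9, 27.2, 14.1 and 6.95 CPM per kb. Mmp12 came next in HFD livers by its mean of 1.23 CPM per kb, but above the next gene, Trem2, in 1 of 5 libraries, which was replicate 2. Gpnmb and Mmp12, at 0.0396 and 0.0761 CPM per kb, were the lowest of the 10 in BD livers, below Cx3cr1 at 0.177, Itgax at 0.232, Ccr2 at 0.262 and Trem2 at 0.482 CPM per kb.

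Partners of the markers were followed by list. The counts of each list, here and below, are to be read beside the calls over all 12193 genes tested. Called higher were 12.8% in MCD against BD, 2.22% in MCD against HFD and 3.65% in HFD against BD. In the same order, 1053, 113 and 399 genes were called lower. No list was tested against these shares. Of the TREM2 pathway, 11 of 12 genes were tested and 8 were called higher in MCD than in BD, 3 in MCD than in HFD and 1 in HFD than in BD. Syk, the kinase that TYROBP recruits, averaged 15.4 ± 2.57 CPM in MCD, 10.4 ± 2.01 CPM in HFD and 6.12 ± 1.24 CPM in BD livers (SD, n = 5 each). It differed by 1.15 ± 0.16 in MCD against BD and by 0.67 ± 0.16 in HFD against BD on the log2 scale (SE, edgeR adjusted p = 6.32e-05 and 0.0138). Tyrobp itself, named after its values were seen because it is the adaptor of TREM2, averaged 24.9 ± 2.91, 15.02 ± 4.39 and 10.3 ± 2.86 CPM in MCD, HFD and BD livers, and was higher in MCD than in BD by 1.08 ± 0.18 (SE, edgeR adjusted p = 3.11e-04).

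Of 21 other genes of the lipid-associated state, all tested, 14 were called higher in MCD than in BD. The lipid droplet coat gene Plin2, which hepatocytes also make, had the smallest p, at 876 ± 107 CPM in MCD, 924 ± 121 CPM in HFD and 436 ± 59.5 CPM in BD livers (SD, n = 5 each). It was higher than in BD livers by 0.87 ± 0.11 in MCD and by 1.02 ± 0.11 in HFD livers (log2 scale, SE, edgeR adjusted p = 4.72e-05 and 1.16e-05). MCD against HFD called 2 of the 21 higher and 1 lower, the fatty acid binding gene Fabp5, with a difference of -2.35 ± 0.46 (SE, edgeR adjusted p = 0.0181; named after its values were seen). The median over the list was 0.67 in MCD against BD and 0.29 in HFD against BD.

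Of 10 osteopontin receptor genes, 4 were called higher and 1 lower in MCD than in BD. Cd44, the hyaluronan and osteopontin receptor, averaged 23.6 ± 3.39 CPM in MCD and 9.17 ± 2.47 CPM in BD livers (SD, n = 5 each) and differed by 1.19 ± 0.18 on the log2 scale (SE, edgeR adjusted p = 1.26e-04). HFD against BD called 1 higher and 1 lower, the integrin gene Itga5 at -0.58 ± 0.10 (SE, edgeR adjusted p = 0.00118). Over all 12193 genes, 3.65% were called higher there and 399 lower. Among 11 genes for the ligands and growth factors of monocytes, 5 were tested and 4 called higher in MCD than in BD. Ccl5 had the smallest p at 2.38 ± 0.49 (SE, edgeR adjusted p = 0.00211), and the ligands of the 2 chemokine receptors, named after their values were seen, stood at 2.53 ± 0.55 for Ccl2 and 1.18 ± 0.36 for Cx3cl1 (SE, edgeR adjusted p = 0.00354 and 0.0266). Ccl2 averaged 4.67 ± 1.34 CPM in MCD, 1.08 ± 0.795 CPM in HFD and 0.472 ± 0.775 CPM in BD livers (SD, n = 5 each). Its medians of 0.766 CPM in HFD and 0.200 CPM in BD livers lay under the filter level of 0.970 CPM. The filter thus partly set the Ccl2 difference.

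Of 16 monocyte genes 10 were tested and 8 called higher in MCD than in BD, with Itgal, the LFA-1 alpha chain, at 1.09 ± 0.16 (SE, edgeR adjusted p = 1.18e-04). HFD against BD called 4 of these 10 higher, with Spn, the sialoglycoprotein CD43, at 1.26 ± 0.31 (SE, edgeR adjusted p = 0.0181). Of 15 other proteases and inhibitors of macrophages, 12 were tested, 6 called higher and 1 lower in MCD than in BD. Mmp13, a collagenase, was at 4.69 ± 0.72 (SE, edgeR adjusted p = 2.96e-04), with means of 4.75 ± 1.92 CPM in MCD, 0.923 ± 1.18 CPM in HFD and 0.106 ± 0.129 CPM in BD livers (SD, n = 5 each). Its means in HFD and BD livers lay under the filter level of 0.970 CPM, so the filter partly set the Mmp13 difference. For the MiT regulators of lysosomal genes, Mitf, Tfeb, Tfe3 and Tfec, edgeR, DESeq2 and limma-voom called 0 of 4 in each comparison, with 1 unadjusted p under 0.05 in MCD against BD.

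Some genes of other cells whose RNA could carry these markers were also called between the diets, as were proliferation genes. Beside them, 12.8% of all genes were called higher in MCD than in BD and 2.22% in MCD than in HFD. Of 12 stellate cell and fibroblast genes, 10 were called higher in MCD than in BD and 6 in MCD than in HFD, with sums of 619 to 1078 CPM in MCD, 412 to 605 CPM in HFD and 324 to 421 CPM in BD livers. Pdgfrb, the platelet-derived growth factor receptor of stellate cells, differed by 0.97 ± 0.15 in MCD against BD (log2 scale, SE, edgeR adjusted p = 1.96e-04). The 10 pan-leukocyte genes gave 9 calls higher in MCD than in BD, led by Laptm5 at 1.21 ± 0.17, which was also higher in HFD than in BD by 0.62 ± 0.17 (SE, edgeR adjusted p = 8.80e-05 and 0.0332). All 5 tested proliferation genes were called higher in MCD than in BD and than in HFD, with Mki67 at 10.1 ± 1.81 CPM in MCD, 3.49 ± 1.08 CPM in HFD and 1.63 ± 1.09 CPM in BD livers (SD, n = 5 each).

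Bile duct cell genes gave 2 calls higher, led by Krt23 at 1.67 ± 0.37, and 1 lower among 10 tested in MCD against BD (SE, edgeR adjusted p = 0.00325). Over all 12193 genes, 12.8% were called higher and 1053 lower in that comparison. In HFD against BD the call was Sox9 at -0.95 ± 0.22 (SE, edgeR adjusted p = 0.0124). Dendritic cell genes gave 3 calls higher of 6 tested, led by Irf8 at 0.91 ± 0.21, and endothelial genes 3 of 11, led by Stab2 at 0.44 ± 0.09 (SE, edgeR adjusted p = 0.00463 and 0.00175). Of 9 hepatocyte genes, 3 were called lower in MCD than in BD and 2 in HFD than in BD, with the urea cycle gene Cps1 at -1.56 ± 0.21 and -1.18 ± 0.21 (SE, edgeR adjusted p = 1.11e-04 and 0.00227). Most lymphocyte and neutrophil genes were too low to test: 1 of 13 NK and T cell genes (Cd4, lower in MCD than in BD, log2 fold change -1.39, edgeR adjusted p = 0.00482), 3 of 6 B cell genes and 1 of 9 neutrophil genes (Csf3r, higher by 1.05, edgeR adjusted p = 0.00205) passed the filter. The 13 NK and T cell genes together summed to 6.00 to 12.97 CPM in MCD, 5.65 to 8.05 CPM in HFD and 3.60 to 7.97 CPM in BD livers. Cd8a, too low to test and named after its values were seen, averaged 1.33 ± 0.885 CPM in MCD, 0.333 ± 0.242 CPM in HFD and 0.282 ± 0.275 CPM in BD livers (SD, n = 5 each). Neutrophil genes summed to 4.96 to 7.26 CPM in MCD, 3.78 to 5.82 CPM in HFD and 1.60 to 3.51 CPM in BD livers, with Camp and Ltf at 0 in all HFD and all BD libraries and Mpo at 0 in all HFD libraries. EdgeR, DESeq2 and limma-voom called 0 of the 3 B cell genes and 0 of 2 tested platelet genes in each comparison, with 1 unadjusted p under 0.05, for a platelet gene in MCD against BD. The part of any of these cells in the marker levels was not tested.

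The genes whose pattern over the 15 libraries was nearest to the mean of the 10 markers were sought among 2525 others called in MCD against BD, by the root mean square difference of standardized log2(CPM + 0.5). These 2525 held genes called lower as well as higher. Lowered genes lie far from the pattern of the markers, which raises the median distance given below. Among the nearest were Sirpa, the receptor for the signal CD47 on myeloid cells, at 0.172 SD, the actin regulator Wdr1 at 0.177 SD, the annexin Anxa5 at 0.195 SD and the collagen gene Col1a2 at 0.201 SD, where the median candidate was at 0.725 SD. Ifi27l2b and the tropomyosin gene Tpm1, both at 0.226 SD, and Ubd, a ubiquitin-like modifier, at 0.232 SD were also among them. Sirpa averaged 56.5 ± 8.97 CPM in MCD, 31.9 ± 9.80 CPM in HFD and 18.9 ± 2.02 CPM in BD livers (SD, n = 5 each), and its value of 48.5 CPM in HFD replicate 2 lay above its mean in that diet. Nearest to Gpnmb alone were Ifi27l2b at 0.174 SD, Col1a1 at 0.179 SD and Col1a2 at 0.179 SD. For Cx3cr1 the nearest were Mmp2, Pdgfrb and Arhgef25 at 0.225, 0.252 and 0.262 SD, and for Spp1 they were Chmp2b, Hsd17b13 and Anxa4 at 0.260, 0.301 and 0.305 SD. Ifi27l2b belongs to a family of similar genes, so its count is uncertain.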

How the data were processed

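PolyA RNA of liver was sequenced in 15 libraries, 5 per diet, with a strand-keeping kit. The deposited values are raw read counts, 1 whole number for each gene symbol. The submitters' processing notes name the build GRCm38/mm10 and the tools HTSeq, DESeq2, Trimmomatic and TopHat2 (2.0.13). Which annotation, counting mode and strand setting were used is not given in the sources used here, so overlapping and antisense genes are uncertain. The closing rows for reads of no gene (12.7% to 17.0% outside genes, 0.567% to 0.841% ambiguous) were left out, and the 1.15 to 2.80 non-unique alignments per gene count entered no gene. All 30 replicate pairs within a diet differed beyond sampling noise, with chi-square values of 6.89 to 61.1 per degree of freedom.

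CPM is the count scaled to a library total of 1000000 gene counts, without TMM. The test was edgeR 4.0.16 under R 4.3.3 (TMM, filterByExpr with minimum count 10 and total 15, robust quasi-likelihood fit of all 15 libraries, two-sided F test). The SE is the size of the log2 fold change over the square root of F, and intervals are 95%. All 10 genes passed the filter. The common biological coefficient of variation was 0.176. The relative fit set each library's size to the geometric mean of CPM + 0.5 over the 10 pan-macrophage genes. Of 236 entries in the gene lists, 232 were matched, 4 by an older symbol. The procedure was tested on simulated counts. Members, lists and alternatives (DESeq2 1.42.0, limma 3.58.1 voom, other scalings, filters and fits, leaving out each library) were chosen with earlier results of these data known. Named genes are the 10 markers, the pan-macrophage and Kupffer lists in full, and the called gene with the smallest p in MCD against BD, and in HFD against BD, of each other list. Floors cover counting error only. A few genes of the lists and of the nearest patterns are not reported here.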

Additional observations from a re-analysis of the deposited data

Results flagged for a closer look

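In 7 of 30 sets of 5 libraries (10 genes in 3 diets), 1 library lay far from the other 4 by Dixon's criterion, a gap over the range above 0.71. Chance gives such a gap in about 1 of 20 sets of normally distributed values, which CPM from few reads need not be. In 6 of the 7 it was HFD replicate 2, which held 9.31 CPM of Gpnmb beside 0.0479 to 0.663 CPM in the other HFD libraries, and 22.3 CPM of Mmp12 beside 0.144 to 0.916 CPM. Trem2 was at 3.01 CPM there beside 0.458 to 1.06 CPM, and Itgax at 5.14 CPM beside 1.198 to 2.06 CPM. Spp1 was at 187 CPM in that library beside 51.02 to 77.0 CPM, and Ccr2 at 6.50 CPM beside 2.15 to 2.75 CPM. The genes were measured in the same library and are not separate pieces of evidence. In MCD livers, replicate 1 held 32.0 CPM of Cd9 beside 22.7 to 24.4 CPM in the other 4. No cause was tested.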

How the results depend on the processing

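Of the values for single genes under the alternatives, 719 stayed on the same side of the threshold, 23 passed where the reported fit had not and 28 were lost. No value called in either fit changed sign. Cd9 in MCD against HFD, not called in any, changed sign in 3: -0.014 with the covariate below, -0.029 without MCD replicate 1 and -0.023 without HFD replicate 4. MCD against BD called 10 of the genes, and 8 to 10 when single libraries were left out. MCD against HFD depended most on the processing. Its 3 genes became 5 with DESeq2, 7 with limma-voom, 9 without both HFD replicate 2 and MCD replicate 3, and 0 when the log2 of non-unique alignments per gene count was a covariate or when tested against 1.5-fold. When single libraries were left out they ran from 0 (HFD replicate 4) to 9 (HFD replicate 2). HFD replicate 2 and MCD replicate 3 were singled out by the levels of these genes, so counts without them are descriptive. Over all genes, the 384 calls of MCD against HFD became 701 with DESeq2, 500 with limma-voom, 224 with the libraries of these diets alone, 82 with the covariate, 227 with counts thinned to the shallowest library, 9 against 1.5-fold and 1365 without both libraries, and 74 to 1248 when single libraries were left out. Against 1.5-fold, the 2610 calls of MCD against BD became 473, and the 844 calls of HFD against BD became 110, with 0 of the 10 genes in place of 2. Relative to pan-macrophage genes, the 5 calls of MCD against HFD became 2 with Kupffer cell genes as the measure and 2 to 6 without single libraries. In MCD against BD, 6 higher and 1 lower became 8 and 0 with Kupffer cell genes and 7 and 1 with pan-leukocyte genes. The 0 calls of HFD against BD became 1 with pan-leukocyte genes, 1 with Kupffer cell genes and 0 to 2 without single libraries. For the relative counts with other measures or without single libraries, no share of all genes was taken. With counts thinned, Trem2 and Cx3cr1 did not pass the filter and the other 8 were called in MCD against BD, Gpnmb at 6.71. In MCD against BD with the covariate, Gpnmb fell to 4.01, Mmp12 to 3.61 and Trem2 to 1.77 on the log2 scale, each still past the threshold, while Cd9 and Spp1 did not pass (adjusted p = 0.129 and 0.115). The cause was not tested for these changes. Without single libraries, genes called ran from 1938 to 2805 in MCD against BD and from 569 to 974 in HFD against BD. No paired analysis was possible because the replicate numbers only follow the order of deposit and link no library of one diet to one of another. In the shallowest library 3 counts are 0.810 CPM, which limits what can be said of Gpnmb, Mmp12, Trem2 and Cx3cr1 in HFD and BD livers.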
